A study of Mus musculus with 12 samples.

Results

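The transcripts of 10 genes that detect nucleic acid inside cells, or relay that detection towards interferon, were followed in MOC2 cells, a mouse squamous cell carcinoma line. They were chosen by symbol from a list of pathway genes. The rule uses no measured value, but the choice was made with earlier results of these data known. The 10 genes were Ddx58 (RIG-I), Ifih1 (MDA5), Dhx58 (LGP2), Mavs, Tlr3, Mb21d1 (cGAS), Tmem173 (STING), Zbp1, Tbk1 and Irf3. The count table held all 10 among its 55421 genes, and all 10 were among the 18108 genes with enough counts to be tested. The study set untreated against senescent tumor cells that can or cannot release extracellular vesicles (EVs), and poly(A)+ RNA was sequenced in 12 libraries, 3 in each of 4 groups. EV-proficient cells were the derivative MOC2-25 and EV-deficient cells the derivative MOC2-27. Each was given either DMSO, the solvent control, or 600 nM paclitaxel, a drug that stabilizes microtubules, for 48 h to induce senescence. Each EV label is carried by 1 derivative, so the label and the derivative cannot be told apart. The labels name no targeted gene, and none was checked here. Nothing in the labels says that the 3 libraries of a group came from separate experiments, so p-values measure the spread between these libraries, which may be technical.

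Cells detect stray RNA and DNA with a small set of receptors. RIG-I and MDA5 bind double-stranded RNA in the cytosol and signal through MAVS on mitochondria, whereas TLR3 reads double-stranded RNA in endosomes. cGAS binds cytosolic DNA and makes a cyclic dinucleotide that activates STING, and both routes meet at the kinase TBK1 and the transcription factor IRF3, which switches on the gene for interferon beta. Interferon in turn raises transcription of several of these receptors in many cell types.

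Library totals ran from 23263472 counts in EV-proficient paclitaxel replicate 3 to 62955757 in EV-deficient DMSO replicate 1. Of the 9 epithelial markers listed, the summed level was 5151 to 5994 CPM (counts relative to the library total, scaled between libraries by edgeR's TMM factors) under DMSO and 3233 to 3881 CPM under paclitaxel, with Krt5 and Trp63 at or near 0 throughout. Krt8, Krt18, Cdh1 and Krt6a were lower with paclitaxel in both labels, but not every epithelial marker followed the sum. Epcam was 386 to 424 CPM in EV-proficient DMSO and 795 to 839 CPM in EV-proficient paclitaxel libraries. Dsp was 165 to 171 CPM in EV-deficient DMSO and 195 to 223 CPM in EV-deficient paclitaxel libraries. The 9 leukocyte markers summed to 6.70 to 9.76 CPM under DMSO and 23.1 to 40.3 CPM under paclitaxel. Most of that sum was Cd68, at 6.19 to 8.46 CPM under DMSO and 21.4 to 39.2 CPM under paclitaxel. Ptprc had 13 to 18 counts in EV-proficient DMSO and 30 to 52 in EV-proficient paclitaxel libraries, with 33 to 52 and 32 to 60 in the EV-deficient ones, and Itgax had 1 to 10 counts under DMSO and 10 to 55 under paclitaxel. Itgam had 0 to 12 counts, and Cd3e, Siglech, Adgre1 and Lyz2 were at or near 0. The 5 fibroblast markers summed to 1.65 to 3.42 CPM under DMSO and 5.26 to 8.38 CPM under paclitaxel, and the 3 endothelial markers to 1.69 to 2.49 and 2.55 to 4.26 CPM. The part of these shifts in the results was not tested. In such bulk RNA, fewer cells of a kind and less RNA per cell cannot be told apart.

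The EV labels ran in opposite directions under the 2 treatments. Of 2834 genes called different between the labels under both DMSO and paclitaxel, only 112 (3.95%) differed in the same direction. A row named dngfr, which the authors added to the gene table, measured 8.99 ± 3.23 CPM (SD, n = 3) in EV-proficient cells and 2.15 ± 0.349 CPM in EV-deficient cells under DMSO. Under paclitaxel it measured 3.24 ± 0.683 CPM in EV-proficient cells and 10.9 ± 1.42 CPM in EV-deficient cells. The libraries are therefore named below by their deposited labels, and the paclitaxel effects on the 10 genes are also given against the other label's DMSO group. The average of both paclitaxel effects does not depend on which EV label a library carries within a treatment. Whether labels were exchanged was not tested.

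Paclitaxel raised 6 of the 10 genes in cells of both labels. These were the 3 cytosolic RNA helicases Ddx58, Ifih1 and Dhx58, the endosomal receptor Tlr3, the adaptor Tmem173 and the Z-form nucleic acid sensor Zbp1. The 3 genes of the signaling chain, Mavs, Tbk1 and Irf3, moved by less than 1.5-fold in either label. Mavs in EV-deficient cells was at that limit (1.499-fold), with log2 values of -0.63 to -0.56 in fits that left out 1 library. Mb21d1 rose slightly in EV-proficient cells and fell 3.57-fold in EV-deficient cells. In EV-proficient cells 8 genes rose and 1 fell, where 58.2% of all tested genes were called (31.1% higher and 27.1% lower), and the median log2 fold change was 0.68 against 0.05 over all tested genes. In EV-deficient cells 6 rose and 3 fell, where 62.9% of all tested genes were called (32.4% higher and 30.5% lower), and the median was 1.66 against 0.07. The paclitaxel and DMSO libraries did not overlap for 8 of 10 genes in EV-proficient cells, against 62.3% of all tested genes, and for 9 of 10 in EV-deficient cells, against 68.7%. Calls are edgeR quasi-likelihood tests with an adjusted p under 0.05 over all genes tested.

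**Figure D1:**
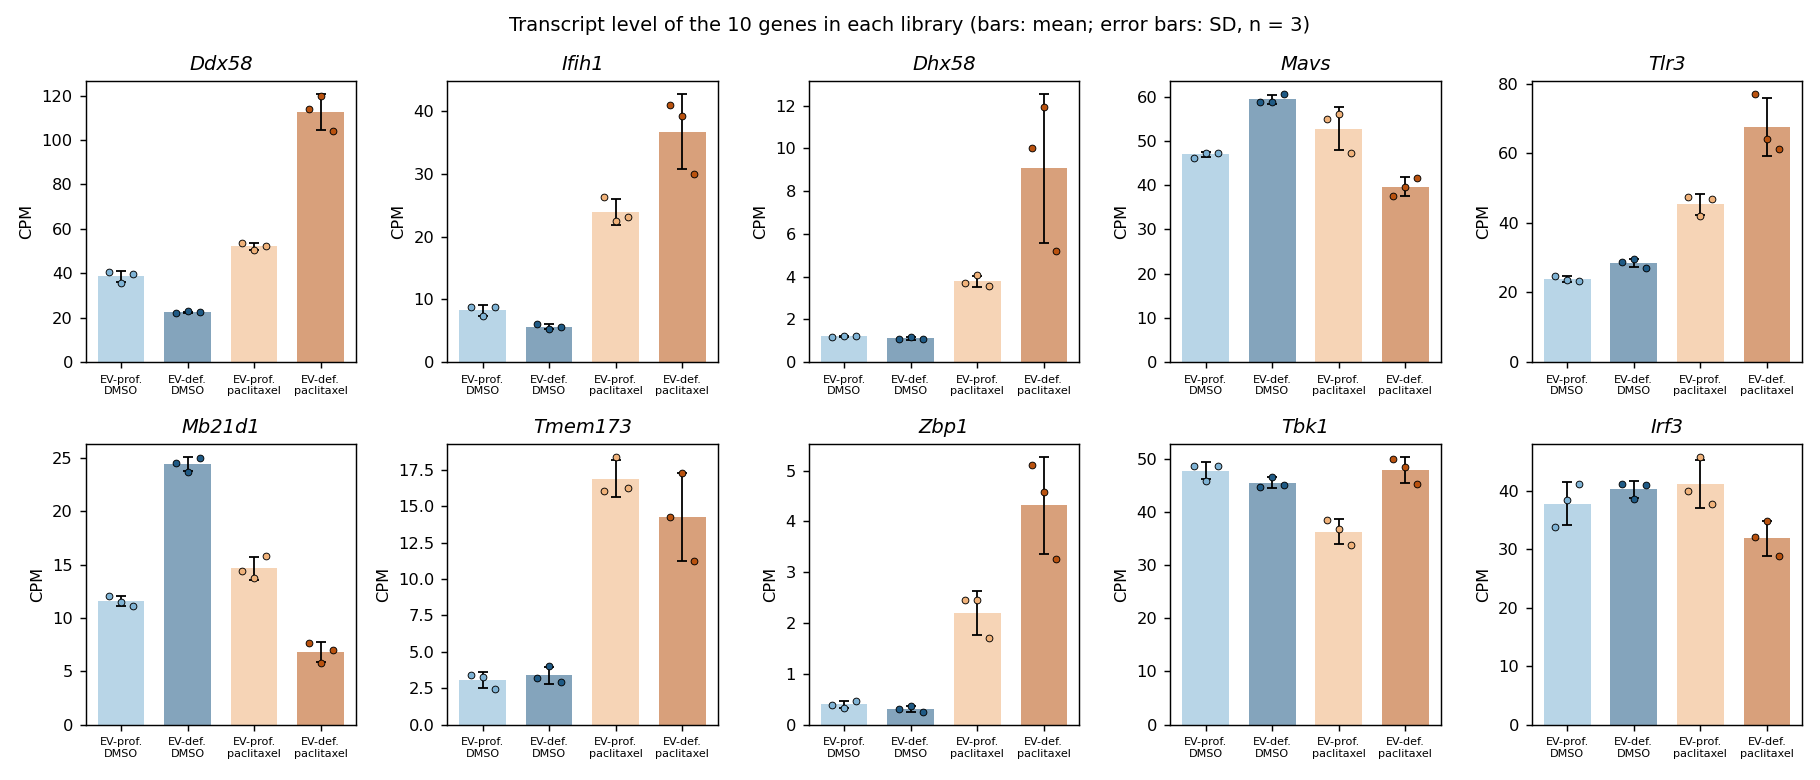
Levels of the 10 genes in each library, in CPM on linear axes from 0, with points for single libraries, bars for the group mean and error bars for the SD (n = 3 per group). Ddx58, Ifih1, Dhx58, Tlr3, Tmem173 and Zbp1 lie higher in both paclitaxel groups than in both DMSO groups, and Mb21d1 is lowest in the EV-deficient paclitaxel libraries.

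Ddx58 encodes RIG-I, the helicase that recognizes short double-stranded RNA with a triphosphate end. The gene lies at chr4:40203773-40239828 on the minus strand (GRCm38). Its level was 40.3, 35.8 and 39.7 CPM in EV-proficient DMSO replicates 1 to 3 and 21.97, 22.7 and 22.3 CPM in EV-deficient DMSO. Under paclitaxel it was 53.5, 50.6 and 52.0 CPM in EV-proficient cells and 114, 119.8 and 104 CPM in EV-deficient cells. No group overlapped another, and the order from high to low was EV-deficient paclitaxel, EV-proficient paclitaxel, EV-proficient DMSO and EV-deficient DMSO. The paclitaxel effect was 0.43 ± 0.07 on the log2 scale in EV-proficient cells (1.35-fold, edgeR quasi-likelihood adjusted p = 1.72e-05) and 2.34 ± 0.07 in EV-deficient cells (5.05-fold, adjusted p = 4.18e-16). The EV-deficient libraries thus held both the lowest and the highest level of Ddx58 in the study.

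Ifih1 encodes MDA5, which assembles along long double-stranded RNA. It lies at chr2:62595798-62646255 on the minus strand. Levels were 8.70, 7.25 and 8.75 CPM in EV-proficient DMSO and 5.996, 5.30 and 5.59 CPM in EV-deficient DMSO. With paclitaxel they were 26.4, 22.4 and 23.1 CPM in EV-proficient cells and 41.0, 39.2 and 29.9 CPM in EV-deficient cells. Its 4 groups kept the order of Ddx58, again without overlap, and replicate 3 was the lowest of the EV-deficient paclitaxel libraries. Paclitaxel raised it 2.92-fold in EV-proficient (log2 1.54 ± 0.12, edgeR adjusted p = 4.80e-10) and 6.51-fold in EV-deficient cells (log2 2.70 ± 0.12, adjusted p = 8.87e-14).

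Dhx58 encodes LGP2, the helicase of this family that lacks signaling domains and modulates the other members. It lies at chr11:100694884-100704271 on the minus strand and overlaps the antisense gene Dhx58os, which had 11 counts over all 12 libraries. DMSO levels were low, at 1.17, 1.20 and 1.23 CPM in EV-proficient cells and 1.05, 1.17 and 1.07 CPM in EV-deficient cells, from 42 to 59 counts a library. Paclitaxel libraries measured 3.70, 4.08 and 3.56 CPM in EV-proficient cells and 10.0, 11.96 and 5.22 CPM in EV-deficient cells. Every paclitaxel library lay above every DMSO library, and EV-deficient paclitaxel replicate 3 was nearer to the EV-proficient paclitaxel libraries than to the others of its group. The paclitaxel effect was 1.66 ± 0.25 log2 in EV-proficient (3.16-fold, edgeR adjusted p = 6.33e-06) and 3.04 ± 0.24 in EV-deficient cells (8.22-fold, adjusted p = 4.65e-10).

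Promoter sequence was matched in RefSeq (GRCm38.p6) for 7 of the 10 genes, as the 250 bases before and 50 bases after the annotated start. Those of 3 are shown because Ddx58 and Ifih1 rose together and Mb21d1 moved the other way in EV-deficient cells. Capitals mark matches to letters of the interferon-stimulated response element (ISRE), the sequence bound by the interferon-activated factor ISGF3 and by IRF proteins.
Ddx58 (chr4:40239776-40240075, minus strand): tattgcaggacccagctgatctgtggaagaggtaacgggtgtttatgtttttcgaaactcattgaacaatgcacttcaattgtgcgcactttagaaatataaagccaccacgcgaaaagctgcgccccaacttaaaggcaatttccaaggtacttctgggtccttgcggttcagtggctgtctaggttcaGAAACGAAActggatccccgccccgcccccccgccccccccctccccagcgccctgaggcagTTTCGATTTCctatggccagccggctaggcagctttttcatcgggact
Ifih1 (chr2:62646206-62646505, minus strand): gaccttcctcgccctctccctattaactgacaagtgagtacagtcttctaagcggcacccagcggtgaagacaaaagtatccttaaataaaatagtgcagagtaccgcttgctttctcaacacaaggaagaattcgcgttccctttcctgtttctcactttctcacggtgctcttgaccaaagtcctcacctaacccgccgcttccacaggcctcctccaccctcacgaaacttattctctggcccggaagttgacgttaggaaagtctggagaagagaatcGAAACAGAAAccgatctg
Mb21d1 (chr9:78443188-78443487, minus strand): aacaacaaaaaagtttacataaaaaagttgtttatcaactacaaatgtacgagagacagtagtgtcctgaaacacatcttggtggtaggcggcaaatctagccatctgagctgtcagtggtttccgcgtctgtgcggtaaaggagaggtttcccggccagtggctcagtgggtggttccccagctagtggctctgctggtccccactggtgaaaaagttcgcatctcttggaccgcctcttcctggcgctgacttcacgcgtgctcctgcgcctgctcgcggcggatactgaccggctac
The ISRE core was searched as GAAA, any 2 bases and GAAA, on both strands, and was found in 1131 of 32851 RefSeq promoters of this length (3.44%). Ddx58 held it as TTTCGATTTC, 2 bases downstream of the start, and Ifih1 as GAAACAGAAA, 32 bases downstream. A form with a 1-base gap, GAAANGAAA, was found in 3.17% of promoters and once in Ddx58, as GAAACGAAA 60 bases upstream. The 5 other promoters searched, those of Mavs, Tlr3, Mb21d1, Tbk1 and Irf3, held neither form in this window. Another motif, GAS (TTCNNNGAA), occurred in 8.30% of RefSeq promoters and in none of the 7 searched here. Promoters of Dhx58, Tmem173 and Zbp1, which all rose with paclitaxel, were not searched. These are matches of letters and were not shown to be bound here.

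Mavs encodes the mitochondrial adaptor through which RIG-I and MDA5 signal. It lies at chr2:131234063-131248025 on the plus strand. DMSO levels were 46.3, 47.4 and 47.4 CPM in EV-proficient cells and 59.0, 58.9 and 60.6 CPM in EV-deficient cells. With paclitaxel, EV-proficient libraries measured 55.1, 56.1 and 47.3 CPM and EV-deficient libraries 37.5, 39.7 and 41.8 CPM. The EV-deficient groups were the highest (DMSO) and lowest (paclitaxel) of the 4, and the EV-proficient groups overlapped each other. In EV-deficient cells the transcript fell 1.499-fold (log2 -0.58 ± 0.07, edgeR adjusted p = 2.73e-07). The EV-proficient difference of 0.17 ± 0.07 passed narrowly (edgeR adjusted p = 0.0434) and did not pass without EV-proficient paclitaxel replicate 2 (0.07, adjusted p = 0.461) or in 10 of the other 11 fits that left out 1 library. Against the other label's DMSO libraries it turned to -0.17 (adjusted p = 0.0488).

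Tlr3 encodes the endosomal receptor for double-stranded RNA, which signals through TRIF rather than MAVS. It lies at chr8:45395665-45411080 on the minus strand. Under DMSO it measured 24.8, 23.5 and 23.4 CPM in EV-proficient cells and 28.8, 29.5 and 27.1 CPM in EV-deficient cells. Paclitaxel libraries reached 47.3, 41.8 and 46.7 CPM in EV-proficient cells and 76.9, 64.1 and 61.2 CPM in EV-deficient cells. The 4 groups did not overlap, and the EV-deficient group was the higher under both treatments. Tlr3 rose 1.89-fold in EV-proficient (log2 0.92 ± 0.09, edgeR adjusted p = 6.91e-09) and 2.37-fold in EV-deficient cells (log2 1.24 ± 0.08, adjusted p = 3.21e-11).

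Mb21d1 encodes cGAS, the enzyme that makes cyclic GMP-AMP when it binds DNA. It lies at chr9:78430526-78443237 on the minus strand. Under DMSO it measured 12.1, 11.5 and 11.1 CPM in EV-proficient cells and 24.6, 23.7 and 25.0 CPM in EV-deficient cells. With paclitaxel it was at 14.4, 13.7 and 15.9 CPM in EV-proficient cells and 7.68, 5.80 and 7.01 CPM in EV-deficient cells. The EV-deficient DMSO libraries were about as far above the EV-proficient ones as the EV-deficient paclitaxel libraries were below them, and no groups overlapped. In EV-deficient cells the fall was -1.84 ± 0.11 log2 (3.57-fold, edgeR adjusted p = 3.59e-12), and 1.10% of tested genes had a lower log2 fold change. In EV-proficient cells the change was 0.34 ± 0.11 (1.26-fold, adjusted p = 0.00962). That rise did not pass without EV-proficient paclitaxel replicate 3 (0.24, adjusted p = 0.0772) and turned to -0.74 (adjusted p = 2.78e-06) against the other label's DMSO libraries.

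Tmem173 encodes STING, the membrane adaptor that cyclic GMP-AMP activates. It lies at chr18:35733679-35740554 on the minus strand. DMSO levels were 3.41, 3.30 and 2.43 CPM in EV-proficient cells and 3.23, 4.003 and 2.89 CPM in EV-deficient cells. Paclitaxel libraries held 16.1, 18.4 and 16.3 CPM in EV-proficient cells and 14.3, 17.3 and 11.3 CPM in EV-deficient cells. The treatments stood clear of each other, and the EV labels overlapped within each treatment. Paclitaxel raised it 5.52-fold in EV-proficient (log2 2.47 ± 0.17, edgeR adjusted p = 7.25e-11) and 4.22-fold in EV-deficient cells (log2 2.08 ± 0.16, adjusted p = 3.65e-10). It was the 1 gene of the 10 whose paclitaxel effect was not called different between the labels (-0.39 ± 0.23, adjusted p = 0.199).

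Zbp1 encodes a sensor of Z-form RNA and DNA that can trigger necroptosis through RIPK3. It lies at chr2:173206612-173218923 on the minus strand. It was low under DMSO, at 0.390, 0.335 and 0.468 CPM in EV-proficient cells and 0.303, 0.375 and 0.241 CPM in EV-deficient cells, from 11 to 18 counts a library. With paclitaxel it was 2.45, 2.46 and 1.70 CPM in EV-proficient cells and 5.11, 4.59 and 3.26 CPM in EV-deficient cells. Both paclitaxel groups lay clear of the DMSO groups and of each other, while the DMSO groups overlapped. Zbp1 had the largest log2 fold change of the 10 in either label, 2.49 ± 0.29 in EV-proficient (5.62-fold, edgeR adjusted p = 2.02e-07) and 3.80 ± 0.29 in EV-deficient cells (13.9-fold, adjusted p = 2.00e-10). The EV-proficient value lay within its SE of that of Tmem173. In EV-deficient cells 97.4% of tested genes had a lower log2 fold change.

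Tbk1 encodes the kinase that phosphorylates IRF3 downstream of MAVS, TRIF and STING. It lies at chr10:121546455-121586787 on the minus strand. Levels were 48.7, 45.9 and 48.7 CPM in EV-proficient DMSO and 44.8, 46.6 and 45.2 CPM in EV-deficient DMSO. Paclitaxel libraries measured 38.4, 36.8 and 33.7 CPM in EV-proficient cells and 50.02, 48.4 and 45.3 CPM in EV-deficient cells. The EV-proficient paclitaxel group alone stood apart, below the 3 other groups, which overlapped each other in the order of their means. Tbk1 fell 1.31-fold in EV-proficient cells (log2 -0.39 ± 0.07, edgeR adjusted p = 5.47e-05). The EV-deficient difference was 0.07 ± 0.07 and was not called (adjusted p = 0.366). Upper-quartile scaling, which moved the median of all tested genes in that comparison by 0.18, gave 0.26 (adjusted p = 0.00281).

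Irf3 encodes the transcription factor that TBK1 activates. It lies at chr7:44997648-45002848 on the plus strand and overlaps 1065 bases of Bcl2l12 on the opposite strand. Bcl2l12 had 2330 counts over the 12 libraries, where Irf3 had 935 to 2604 in each. Whether the counting used strand is not given in the sources used here, so reads in the overlap cannot be assigned with certainty. Under DMSO Irf3 measured 33.8, 38.5 and 41.1 CPM in EV-proficient cells and 41.1, 38.6 and 41.1 CPM in EV-deficient cells. With paclitaxel it was 39.9, 45.8 and 37.8 CPM in EV-proficient cells and 32.0, 34.8 and 28.8 CPM in EV-deficient cells. Each group overlapped its neighbor in the order of means. It fell 1.26-fold in EV-deficient cells (log2 -0.34 ± 0.09, edgeR adjusted p = 0.00223) and was not called in EV-proficient cells (0.13 ± 0.09, adjusted p = 0.229). The fall did not pass under upper-quartile scaling (-0.15, adjusted p = 0.135).

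**Figure D2:**
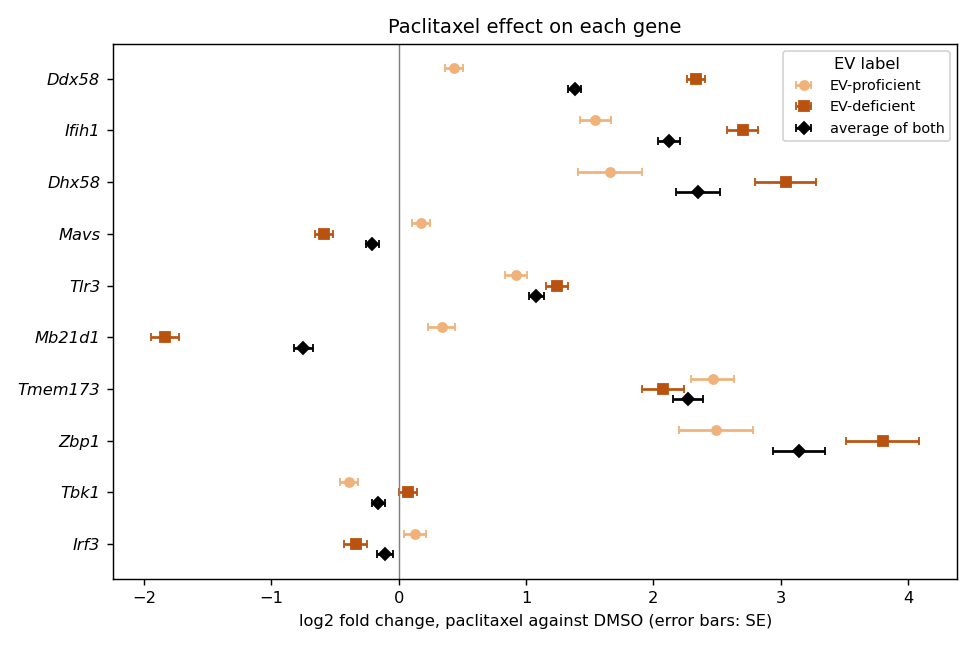
Paclitaxel effect on each of the 10 genes as a log2 fold change against DMSO, with its SE, in EV-proficient cells (circles), EV-deficient cells (squares) and as the average of both (diamonds). Zbp1 reaches 3.80 in EV-deficient cells, Mb21d1 falls to -1.84 there, and Mavs, Tbk1 and Irf3 lie between -0.58 and 0.17.

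Averaged over both labels, paclitaxel raised 6 of the 10 genes and lowered 3, where 68.4% of all tested genes were called (37.1% higher and 31.3% lower). The 6 that rose had average log2 effects of 1.38 ± 0.05 for Ddx58, 2.12 ± 0.09 for Ifih1, 2.35 ± 0.17 for Dhx58, 1.08 ± 0.06 for Tlr3, 2.27 ± 0.12 for Tmem173 and 3.14 ± 0.20 for Zbp1. The 3 that fell were Mb21d1 at -0.75 ± 0.07, Mavs at -0.21 ± 0.05 and Tbk1 at -0.16 ± 0.05. Irf3 was not called (-0.10 ± 0.06, edgeR adjusted p = 0.146), though it passed without EV-proficient DMSO replicate 1 (-0.15), EV-proficient paclitaxel replicate 2 (-0.18) or EV-deficient paclitaxel replicate 2 (-0.16). The Mavs and Tbk1 averages did not pass under upper-quartile scaling (-0.08 and -0.04), and that of Irf3 changed sign (0.0175). The averages for the 6 that rose are larger than 1 on the log2 scale.

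Against the other label's DMSO libraries, the count was 6 higher and 3 lower in both pairings. In EV-deficient paclitaxel against EV-proficient DMSO, 61.4% of all tested genes were called (32.6% higher and 28.8% lower). In EV-proficient paclitaxel against EV-deficient DMSO, 56.9% were called (30.1% higher and 26.8% lower). The log2 fold changes were then closer together for Ddx58 (1.54 in EV-deficient and 1.22 in EV-proficient paclitaxel libraries) and for Ifih1 (2.16 and 2.09). For Mb21d1 they were -0.76 and -0.74, so that the gene was lower with paclitaxel in both pairings. Dhx58 was higher by 2.91 and 1.79, Tlr3 by 1.496 and 0.67, Tmem173 by 2.22 and 2.33 and Zbp1 by 3.44 and 2.85. Mavs was lower by a small margin in both (-0.24 and -0.17). Tbk1 was called in the EV-proficient paclitaxel libraries alone (0.0043 and -0.32) and Irf3 in the EV-deficient ones alone (-0.25 and 0.04).

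Between the EV labels, the DMSO groups differed in fewer of the 10 genes than the paclitaxel groups. Under DMSO, 3 genes were higher and 2 lower in EV-deficient than in EV-proficient cells, where 23.0% of all tested genes were called (12.4% higher and 10.6% lower), and 6 did not overlap, against 43.3% of all tested genes. The higher ones were Mb21d1 (log2 1.08 ± 0.10, edgeR adjusted p = 8.63e-08), Mavs (0.34 ± 0.07, adjusted p = 0.00115) and Tlr3 (0.25 ± 0.09, adjusted p = 0.0364). The lower ones were Ddx58 (-0.79 ± 0.07, adjusted p = 3.13e-08) and Ifih1 (-0.55 ± 0.13, adjusted p = 0.00289). The Tlr3 difference did not pass in 9 of 12 fits without 1 library. Dhx58, Tmem173, Zbp1, Tbk1 and Irf3 were not called, with differences between -0.36 and 0.14.

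Under paclitaxel, 6 genes were higher and 3 lower in EV-deficient cells, where 37.8% of all tested genes were called (16.0% higher and 21.8% lower), and 9 did not overlap, against 44.1%. Among the 6 higher genes were Dhx58 (log2 1.25 ± 0.22, edgeR adjusted p = 0.000116), Ddx58 (1.11 ± 0.07, adjusted p = 9.17e-11) and Zbp1 (0.95 ± 0.24, adjusted p = 0.00322). Ifih1 (0.61 ± 0.11), Tlr3 (0.58 ± 0.08) and Tbk1 (0.40 ± 0.07) were also higher. Mb21d1 (-1.10 ± 0.11), Mavs (-0.42 ± 0.07) and Irf3 (-0.37 ± 0.09) were lower. Tmem173 was not called (-0.25 ± 0.15, adjusted p = 0.206), though it passed without EV-deficient paclitaxel replicate 2 (-0.40, adjusted p = 0.0461). The sign of the difference was opposite under the 2 treatments for 9 of the 10 genes, Tlr3 being the exception, and 4 of the 5 genes called under both treatments had opposite signs.

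**Figure D3:**
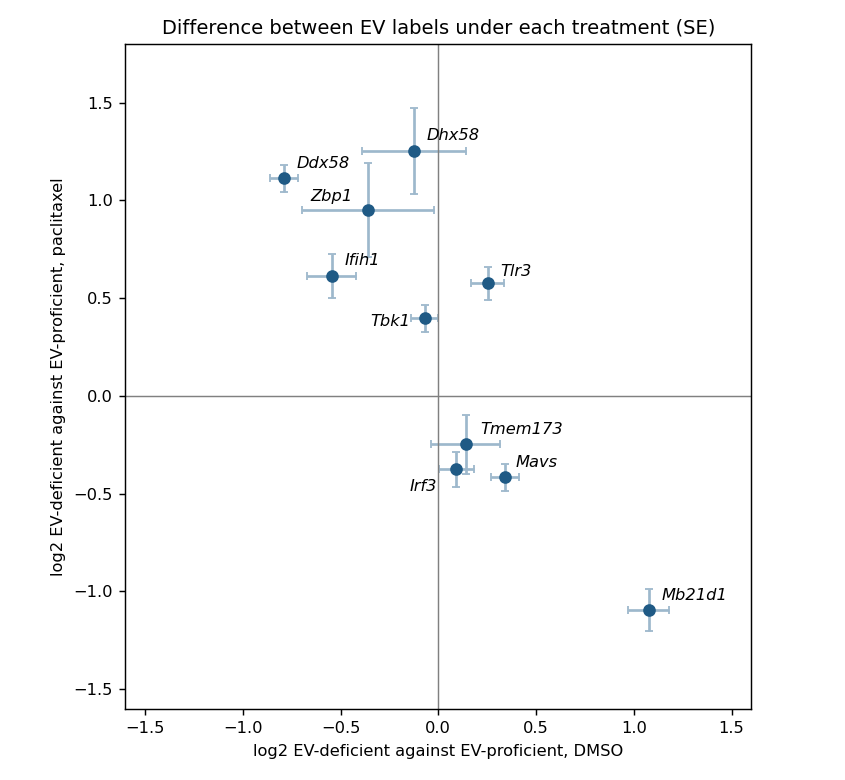
Difference between EV-deficient and EV-proficient libraries under DMSO (horizontal axis) and under paclitaxel (vertical axis), as log2 fold changes with their SE, 1 point for each of the 10 genes. Mb21d1 and Mavs are higher in EV-deficient cells under DMSO and lower under paclitaxel, and Ddx58 and Ifih1 show the reverse.

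The paclitaxel effect differed between the labels for 9 of the 10 genes by the interaction term of the same fit. It was more positive in EV-deficient cells for 6 genes and more negative for 3, where 40.7% of all tested genes were called (16.9% and 23.8%). Differences for the RNA helicases were 1.90 ± 0.10 log2 for Ddx58 (edgeR adjusted p = 1.85e-12), 1.16 ± 0.17 for Ifih1 and 1.38 ± 0.35 for Dhx58. Mb21d1 had the largest, at -2.17 ± 0.15 (adjusted p = 1.95e-10). Zbp1 (1.31 ± 0.42), Tbk1 (0.47 ± 0.10) and Tlr3 (0.32 ± 0.12) were more positive, and Mavs (-0.76 ± 0.10) and Irf3 (-0.47 ± 0.13) more negative. Those of Dhx58 and Zbp1 did not pass in limma-voom (adjusted p = 0.0887 and 0.104), and that of Tlr3 did not pass in 8 of 12 fits without 1 library. By its arithmetic this term equals the EV difference under paclitaxel minus that under DMSO, so it rests on the EV labels described above.

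Per kilobase of exon, which puts genes of different length on a common scale, Mavs, Tbk1 and Irf3 were the most abundant under DMSO. In EV-proficient DMSO cells the level was 14.05 ± 0.189 CPM per kb for Mavs, 12.2 ± 0.420 for Tbk1 and 11.0 ± 1.07 for Irf3 (SD, n = 3). The others, the adaptor Tmem173 among them, were lower, with Ddx58 at 5.48 ± 0.351, Tlr3 at 4.59 ± 0.158, Mb21d1 at 2.81 ± 0.120, Tmem173 at 1.11 ± 0.196, Ifih1 at 1.01 ± 0.104, Dhx58 at 0.366 ± 0.00917 and Zbp1 at 0.113 ± 0.0190 CPM per kb. In EV-deficient paclitaxel cells Ddx58 (16.0 ± 1.12 CPM per kb) and Tlr3 (12.9 ± 1.602) had means above Mavs (11.9 ± 0.633), though the Tlr3 libraries overlapped those of Mavs. Tmem173 (5.21 ± 1.10) there exceeded Mb21d1 (1.65 ± 0.231), the reverse of the order under DMSO.

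The balance between receptors and adaptors was computed within each library as a ratio of CPM per kb. The 3 helicases summed to 0.488 ± 0.0364 of Mavs in EV-proficient DMSO, 0.236 ± 0.00504 in EV-deficient DMSO, 0.730 ± 0.0667 in EV-proficient paclitaxel and 1.97 ± 0.316 in EV-deficient paclitaxel cells (SD, n = 3). No groups overlapped in this ratio. The ratio of Mb21d1 to Tmem173 was 2.57 ± 0.407 and 4.91 ± 0.913 in EV-proficient and EV-deficient DMSO cells. Under paclitaxel it was 0.581 ± 0.0769 and 0.331 ± 0.0979, below every DMSO library. Ddx58 over Ifih1 was 5.45 ± 0.236 and 4.61 ± 0.361 under DMSO and 2.52 ± 0.148 and 3.59 ± 0.410 under paclitaxel, so that Ifih1 gained on Ddx58 in both labels. Tbk1 over Irf3 was 1.12 ± 0.128 and 0.997 ± 0.0590 under DMSO. With paclitaxel it was 0.779 ± 0.0701 in EV-proficient cells, below every DMSO library. In EV-deficient paclitaxel cells it was 1.33 ± 0.0897, with libraries that overlapped EV-proficient DMSO. No test was run on the ratios.

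**Figure D4:**
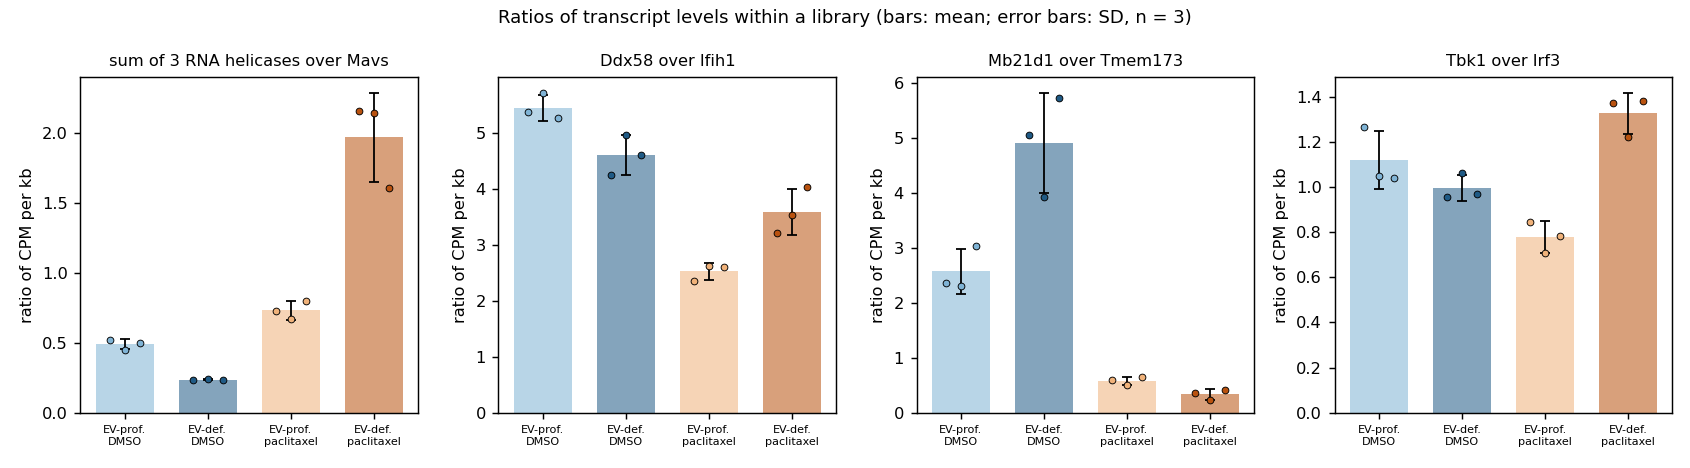
Ratios of transcript levels per kilobase within a library, with points for libraries, bars for the group mean and error bars for the SD (n = 3). The 3 helicases over Mavs reach 1.97 in EV-deficient paclitaxel cells, and Mb21d1 over Tmem173 lies under 1 in both paclitaxel groups.

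Among themselves, the 10 genes were compared by the root mean square (RMS) difference of their log2 CPM over the 12 libraries, each gene centered on its own mean. Mavs and Irf3 were the closest pair (0.144), and Ifih1 and Dhx58 the closest pair of receptors (0.331). Mb21d1 and Zbp1 were the farthest apart (2.09). Over all other tested genes, up to 3 of the nearest are given for each of the 9 genes whose interaction was called, which leaves out Tmem173. Ddx58 lay nearest to Phactr2 (0.112), Cep85 (0.129) and Plat (0.167), Ifih1 to Insl6 (0.150), Copz2 (0.184) and Gipc3 (0.189), and Dhx58 to Irgm1 (0.162), 9930111J21Rik2 (0.210) and A530020G20Rik (0.224). For Zbp1 they were Slpi (0.245), Ifi204 (0.249) and Gpnmb (0.276), for Mb21d1 Uchl3 (0.150), Pus10 (0.152) and Sema6a (0.175), and for Tlr3 Frk (0.147), Cstb (0.160) and Armcx2 (0.160). Among the genes of the signaling chain, Mavs lay nearest to Sh3pxd2a (0.0340), Cgnl1 (0.0562) and Pcdh1 (0.0566), Tbk1 to Pramef8 (0.0602), Prkaa1 (0.0602) and Kpna1 (0.0743), and Irf3 to B4galnt1 (0.0460) and Exoc7 (0.0597). The distance is not scaled to a gene's range, so genes that change little lie close together whatever their pattern. Tbk1 and Irf3 lay 0.297 apart, with interactions of 0.47 and -0.47. The distances compare libraries that share treatment within a group, and were not tested.

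The rest of the pathway was read from 6 lists holding 68 genes, of which 56 were tested. Over all tested genes, 31.1% rose and 27.1% fell in EV-proficient cells and 32.4% rose and 30.5% fell in EV-deficient cells, with medians of 0.05 and 0.07. Of the 8 interferon signaling factors, 6 rose and 0 fell in EV-proficient cells, and 8 rose in EV-deficient cells, with medians of 0.97 and 1.68 against 0.05 and 0.07 over all tested genes. Irf7, the interferon-induced relative of Irf3, rose from 1.05 ± 0.235 to 17.4 ± 1.41 CPM in EV-proficient cells (log2 4.03 ± 0.23) and from 1.10 ± 0.0938 to 37.7 ± 12.6 CPM in EV-deficient cells (log2 5.09 ± 0.22). Irf9, a component of ISGF3, rose by 1.34 ± 0.12 in EV-proficient and by 2.23 ± 0.12 in EV-deficient cells. Irf9 overlaps Rnf31 on the same strand and Irf7 overlaps Phrf1 on the opposite strand, so their counts may be shared in part.

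Transcripts of the interferons on the list had at most 10 counts in any library. Ifnb1, the gene for interferon beta, had 0 to 3 counts in EV-proficient DMSO libraries, 0 to 1 in EV-deficient DMSO, 1 to 5 in EV-proficient paclitaxel and 6 to 10 in EV-deficient paclitaxel libraries, too few to be tested. A limit of 3 counts corresponds to 0.0492 to 0.121 CPM in these libraries, counting error only. Of the 13 interferon and receptor genes listed, 4 receptor genes were tested. In EV-proficient cells 3 rose and in EV-deficient cells 4 (medians 0.39 and 1.14, against 58.2% and 62.9% of all tested genes called and medians of 0.05 and 0.07), among them Ifnlr1, the interferon lambda receptor (0.91 ± 0.11 and 1.37 ± 0.11), and Ifnar2, a chain of the interferon alpha and beta receptor (0.40 ± 0.12 and 1.01 ± 0.12). Il10rb, the partner chain of Ifnlr1, was called in EV-deficient cells (1.27 ± 0.12) and not in EV-proficient cells (0.21 ± 0.12). The Ifnar2 rise in EV-proficient cells did not pass without EV-proficient paclitaxel replicate 2 (0.32, adjusted p = 0.0523) or replicate 3 (0.30, adjusted p = 0.0571).

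Among adaptors and kinases that act beside Mavs and Tbk1, the shares called were near those of all tested genes (31.1% higher and 27.1% lower, and 32.4% and 30.5%), with 5 of 13 higher and 4 lower in EV-proficient cells and 5 higher and 5 lower in EV-deficient cells (medians 0.09 and -0.01). Ikbke, which encodes the kinase most like TBK1, rose by 0.76 ± 0.11 and 1.01 ± 0.11. Traf3, a ubiquitin ligase that links adaptors to TBK1, fell (-0.46 ± 0.07 and -0.82 ± 0.06). Ripk3, the kinase that ZBP1 engages, rose by 1.61 ± 0.52 and 1.86 ± 0.51 from 2 to 20 counts a library under DMSO. Its EV-proficient rise did not pass without EV-proficient DMSO replicate 3 (1.15, adjusted p = 0.0536).

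Regulators of the RNA sensors rose in 7 of 12 and fell in 1 of 12 in EV-proficient cells, and rose in 6 and fell in 4 in EV-deficient cells (medians 0.48 and 0.24). Over all tested genes, 31.1% rose and 27.1% fell in EV-proficient cells and 32.4% and 30.5% in EV-deficient cells, with medians of 0.05 and 0.07. Ddx60, a helicase reported to promote RIG-I signaling, went from 0.278 ± 0.0976 to 10.6 ± 2.30 CPM in EV-proficient (log2 5.27 ± 0.28) and from 0.301 ± 0.139 to 22.5 ± 5.00 CPM in EV-deficient cells (log2 6.21 ± 0.27). Its DMSO libraries held 7 to 19 counts each. Rnf125, a ubiquitin ligase that marks RIG-I for degradation, rose by 1.28 ± 0.19 and 2.21 ± 0.19. Prkra, the PACT protein that aids RIG-I, rose by 1.24 ± 0.12 and 0.90 ± 0.12.

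Of the nucleases and editing enzymes that limit self nucleic acid, where 58.2% and 62.9% of all tested genes were called, about evenly in both directions, 4 of 9 tested were higher and 4 lower in EV-proficient cells and 3 higher and 5 lower in EV-deficient cells (medians 0.02 and -0.24). Enpp1, which degrades cyclic GMP-AMP, rose by 1.10 ± 0.11 and 2.45 ± 0.12. Skiv2l, a helicase of the cytosolic RNA exosome, fell (-0.57 ± 0.08 and -1.19 ± 0.08), as did Banf1, which competes with cGAS for DNA (-0.57 ± 0.06 and -0.92 ± 0.06). Skiv2l overlaps Dxo and Banf1 overlaps Eif1ad, each on the opposite strand. Trex1 was listed at 0 counts in all 12 libraries, and it lies within Atrip on the same strand. Of 10 other nucleic acid sensors tested, 3 rose and 3 fell in EV-proficient cells and 5 rose and 4 fell in EV-deficient cells, with a median of 0.06 in each, shares and medians near those of all tested genes in EV-proficient cells (31.1% and 27.1%, median 0.05). In EV-deficient cells those of all tested genes were 32.4% and 30.5%, with a median of 0.07. Ifi204, an interferon-induced DNA sensor, rose by 2.15 ± 0.17 and 3.57 ± 0.18 and Aim2, the DNA sensor of an inflammasome, by 1.27 ± 0.39 and 4.22 ± 0.43. Aim2 had 11 to 20 counts in EV-proficient and 5 to 7 in EV-deficient DMSO libraries. Tlr13, an endosomal receptor for bacterial RNA, was called in EV-deficient cells from 18 to 24 counts a library with paclitaxel and 2 to 7 under DMSO (2.20 ± 0.67, adjusted p = 0.00685), but not without EV-deficient DMSO replicate 2 (1.88, adjusted p = 0.0548). Only these 3 paclitaxel libraries and EV-proficient paclitaxel replicate 1 reached the level of the low-count filter, so a gene tested on such counts had to be higher with paclitaxel. The 5 sensors counted above as rising in EV-deficient cells include Tlr13.

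Against the other label's DMSO libraries, the genes named from these lists kept their direction and their calls except Il10rb, which passed in EV-proficient paclitaxel libraries as well (0.97, edgeR adjusted p = 6.04e-07). The values moved by over 1.5 times for Aim2 (2.90 in EV-proficient and 2.59 in EV-deficient paclitaxel libraries), Enpp1 (2.29 and 1.25), Ifnar2 (0.81 and 0.60), Il10rb (0.97 and 0.51), Rnf125 (1.95 in EV-proficient) and Tlr13 (1.02 in EV-proficient, not called). The list counts were not recomputed against those libraries.

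**Figure D5:**
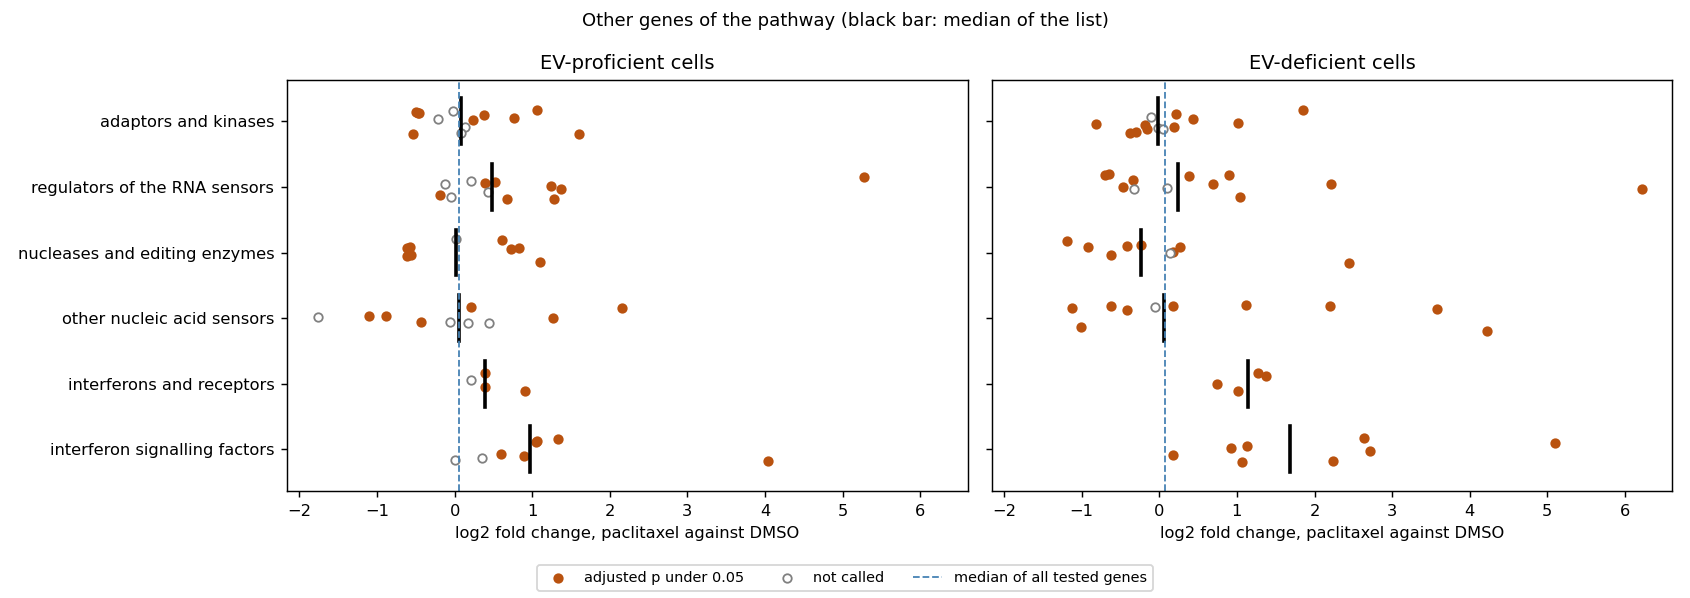
Log2 fold changes with paclitaxel for the tested genes of the 6 other lists in EV-proficient (left) and EV-deficient cells (right), with filled points for genes with an adjusted p under 0.05, a black bar for the list median and a dashed line for the median of all tested genes. The interferon signaling factors have medians of 0.97 and 1.68, and Ddx60 is the point farthest right in both panels.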

How the data were processed

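Gene counts of the 12 libraries were used as the authors deposited them, as whole-number counts per gene in 1 table. Per the labels' protocols, poly(A)+ RNA was made into strand-marked libraries. Per the submitters' processing notes, STAR 2.5.0a and GRCm38 were used. The counting program, its annotation release and its use of strand are not given in the sources used here. Groups were taken from the sample titles. In R 4.3.3, edgeR 4.0.16 filtered genes (filterByExpr, minimum count 10), scaled the 18108 remaining with TMM factors (0.890 to 1.15) and fitted 1 mean per group over all 12 libraries with its quasi-likelihood test. The 2 rows added by the authors, dngfr and gfp, were left out. Adjusted p-values are Benjamini-Hochberg over all genes tested, called under 0.05, and the SE is the log2 fold change over the root of F. CPM uses TMM-scaled totals, and a length is the union of GENCODE M21 exons (GRCm38).

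The members and the lists were chosen with earlier results of these data known. All 10 members were named. Of each other list, up to 3 genes with the largest absolute average paclitaxel effect among those called were named, plus Ifnb1, Irf7 and Ikbke. Some items that this rule or the marker lists hold are not reported here. No large shared effect of replicate number was seen: 0 of 18 same-number pairs had residuals with r over 0.1. This cannot show that same-number libraries were unpaired. The 12 replicate pairs within groups differed beyond sampling noise (chi-square per degree of freedom 4.20 to 27.8). Simulated counts were used to check the calls and signs of planted changes, not the sizes of fold changes or the scaling. Alternatives were other scalings, filters, DESeq2 1.42.0, limma-voom (limma 3.58.1), a replicate block, fits of only the groups compared, each library left out and, chosen after seeing the data, the other EV label's DMSO libraries as reference.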

Additional observations from a re-analysis of the deposited data

Results flagged for a closer look

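The paclitaxel effect differed between the EV labels, by the interaction term, for 9 of the 10 genes. The differences (EV-deficient minus EV-proficient, log2) were 1.90 for Ddx58, 1.16 for Ifih1, 1.38 for Dhx58, 0.32 for Tlr3, 1.31 for Zbp1 and 0.47 for Tbk1. They were -2.17 for Mb21d1, -0.76 for Mavs and -0.47 for Irf3. Of the 2834 genes called between the EV labels under both treatments, 112 differed in the same direction, and the part of that in these values was not tested.

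The row dngfr, outside the gene comparisons, held counts in every library, the lowest being 93. Its level under DMSO was higher in EV-proficient cells and under paclitaxel higher in EV-deficient cells, while the row gfp, also added by the authors, was at 0 in every library.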

How the results depend on the processing

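The number of the 10 genes called stayed within 1.5 times of its value in each of the 6 comparisons under every alternative run. Without 1 library it was 8 to 8 (paclitaxel, EV-proficient), 9 to 9 (paclitaxel, EV-deficient), 4 to 5 (labels, DMSO), 9 to 10 (labels, paclitaxel), 8 to 9 (interaction) and 9 to 10 (average). Signs changed for Mavs (-0.17) and Mb21d1 (-0.74) in EV-proficient cells against the other label's DMSO libraries and for the Irf3 average under upper-quartile scaling (0.0175). Without 1 library, signs changed for Irf3 (-0.0126 to 0.19) and Tlr13 (-0.13 to 0.76) in EV-proficient cells. The replicate block changed the call of 1 of 114 results, Mavs in EV-proficient cells (0.17, edgeR adjusted p = 0.0520). Of the same 114 results, calls were lost for 1 under DESeq2 (Mavs in EV-proficient cells), for 2 under DESeq2's size factors in edgeR (also Tlr3 between the labels under DMSO), for 2 without the low-count filter (the Tlr3 interaction and the Tlr13 average) and for 3 in limma-voom (the Dhx58 and Zbp1 interactions and Tlr3 under DMSO). Upper-quartile scaling lost 4 (the Mavs and Tbk1 averages, Irf3 in EV-deficient cells and Tlr3 under DMSO) and gained 2 (Tbk1 in EV-deficient and Il10rb in EV-proficient cells). It moved the median of all tested genes by 0.18 in EV-deficient cells and by 0.12 in the average. The shift in the average is of the order of the Mavs, Tbk1 and Irf3 averages. The shift in EV-deficient cells is smaller than the Mavs fall there (-0.58). Low counts limit Zbp1, Dhx58, Ddx60, Aim2, Ripk3 and Tlr13 under DMSO. The cause of these changes was not tested.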
